A study of Ictidomys tridecemlineatus with 15 samples.

Results

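A set of lysosomal genes was followed through the hibernation cycle in ground squirrel liver: the sialidase Neu1, the cathepsins Ctsa, Ctsb and Ctsd, the glycosidases Gla and Hexa, the membrane proteins Lamp1 and Lamp2, and Tfeb, a transcription factor for lysosomal genes. Neu1 was chosen by its measured rise between interbout arousal and torpor entrance. The other genes were named for their place in the lysosome, with earlier results of these data known. Units of the count table were matched to these names by symbol. Of the 9 genes, 7 have a unit, each holding that gene alone, among 6324 units in all and 4705 units of a single gene. Ctsb and Gla have no unit under their names and are not analysed here.

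The libraries are GRO-seq of frozen liver from female, laboratory-housed 13-lined ground squirrels of a breeding colony, with each library from a separate animal carrying telemeters for body temperature. The groups are summer active (SA, n = 3), from the warm period before hibernation began, and 4 stages of hibernation defined by body temperature and time: interbout aroused (IBA, n = 3), entrance into torpor (Ent, n = 3), early torpor (ET, n = 3) and late torpor (LT, n = 2). The SA animals were housed with daily light and the hibernating animals in the dark, so housing goes with the contrast of SA and winter. No animal received a drug or carried a transgene, and the labels give no age. GRO-seq extends already engaged RNA polymerases in isolated nuclei with a labelled nucleotide, at the same temperature for all states. The values thus measure nascent transcription over each unit, which for some genes runs past the annotated 3′ end. They measure neither mature RNA nor protein.

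Lysosomes break down proteins, glycans and lipids with acid hydrolases that are made in the endoplasmic reticulum, sorted through the Golgi and held inside a membrane coated by LAMP1 and LAMP2. NEU1 removes terminal sialic acids from glycoproteins and glycolipids. It is stable and active only when bound to cathepsin A, the product of Ctsa, in a complex that also holds beta-galactosidase. TFEB is held in the cytoplasm when mTORC1 signals that nutrients are plentiful and enters the nucleus in fasting, where it binds the promoters of many lysosomal genes. In liver, lysosomes carry out autophagy and take up and degrade plasma glycoproteins and lipoprotein cholesterol.

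Total counts ranged from 3713883 to 8884763 per library, and the 7 genes of the set with a unit had between 36 and 1745 counts in each library. Levels are given as CPM, counts scaled to the library total, after TMM scaling, and differences as log2 fold changes from edgeR's quasi-likelihood test where each p was adjusted for all 6324 units together (Benjamini-Hochberg). Levels are therefore relative to the other units of a library, and a rise or fall below is of this relative level. The paper states that scaling by library size will hide changes of overall transcription between the stages. An earlier run-on study of golden-mantled ground squirrels that it cites found more liver transcription in IBA than in LT or SA. Single libraries stood apart for some of these genes, ET replicate 1 for Ctsd, Lamp1 and Ctsa and SA replicate 3 for Tfeb, and values without them are given beside the contrasts they move most. Each is also the library with the largest share of spliced reads of its state in the records of the study, and the part of this in its values was not tested. The study's animal records place all ET animals in a collection season of their own, so that ET and season cannot be told apart. The IBA and LT animals also came from different seasons, which are linked only through SA and Ent. Bulk liver does not separate fewer cells of a type from less RNA per cell. Hepatocyte markers (7 of 12 with a unit) were abundant in every library, with a summed level of 10513 to 22191 CPM in SA, 8959 to 13459 in IBA, 7667 to 8457 in Ent, 3966 to 8216 in ET and 5055 to 7508 in LT. A large part of the SA sum is Cps1, with 2643 to 13658 CPM in SA and a mean of 1046 in LT. The mean of Apob was 3228 CPM in SA and 3781 in LT, while each other marker had a lower mean in LT than in SA. These sums therefore do not describe each marker on its own. None of the 14 macrophage markers had a unit of its own, so the share of Kupffer cells, which are rich in lysosomes, could not be followed. Markers of sinusoidal endothelium (3 of 7 with a unit) had a summed level of 186 to 241 CPM in SA, 199 to 228 in IBA, 203 to 241 in Ent, 124 to 203 in ET and 135 to 148 in LT. They did not move together. From SA to LT the mean of Kdr went from 101 to 45.3 CPM and that of Pecam1 from 61.1 to 37.2. The mean of Stab1 went from 44.1 to 58.7 CPM. The 1 cholangiocyte marker with a unit (of 5), Sox9, was at 25.9 to 41.0 CPM in SA, 16.5 to 36.0 in IBA, 29.8 to 46.1 in Ent, 10.9 to 18.1 in ET and 7.07 to 10.1 in LT, with both LT animals below those of every other state. The 1 stellate marker (of 8), Rgs5, ranged from 42.4 to 73.0 CPM in SA, 46.6 to 66.8 in IBA, 40.5 to 57.0 in Ent, 32.9 to 56.1 in ET and 37.7 to 41.0 in LT. None of the 7 lymphocyte markers had a unit. The part of cell composition in the results below was not tested.

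In relative level, Neu1 was lowest in IBA, higher at entrance than in summer, and highest in the cold animals of ET and LT. The SA animals had 30.1, 21.7 and 23.2 CPM, and the IBA animals had 10.2, 12.5 and 14.0 CPM. At entrance the values were 49.4, 49.0 and 43.1 CPM. In ET they were 120, 96.4 and 91.3 CPM, and in LT 122 and 111 CPM. The order of the levels was therefore IBA, SA, Ent, and then ET and LT together. No library of IBA, SA or Ent overlapped with a library of another state, and only ET and LT overlapped with each other.

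The mean level of Neu1 was 12.3 ± 1.92 CPM (SD, n = 3) in IBA and 47.2 ± 3.49 (SD, n = 3) in Ent. This is the difference for which the gene was chosen, a log2 fold change of 1.93 (SE 0.18), and it is given with no test. By size alone Neu1 was rank 12 of the 4705 single-gene units in this contrast. The changes at ranks 1 to 6 had wider errors, from 5.64 (SE 1.40) for Rad54l to 2.25 (SE 0.56) for Mfsd2a. The other lysosomal genes lay far down the same order, Ctsa at rank 606 and Hexa at rank 1464, with Lamp2 at 1733, Ctsd at 2040, Lamp1 at 2102 and Tfeb at 2666.

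The other steps that share the IBA or Ent libraries were also left without a test for Neu1. From SA to IBA its level differed by a log2 fold change of -1.01 (SE 0.18), from Ent to ET by 1.12 (SE 0.16) and from IBA to LT by 3.23 (SE 0.19). The last of these is a 9.40-fold difference and was rank 8 of the 4705 single-gene units.

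SA, ET and LT hold none of the libraries that chose Neu1. The spread used for their tests was still estimated over all 14 libraries, with those of IBA and Ent among them. These tests are therefore not fully separate from the choice of Neu1. Against SA (25.0 ± 4.49 CPM, SD, n = 3), Neu1 rose 4.11-fold in ET (103 ± 15.4, SD, n = 3), a log2 fold change of 2.04 (SE 0.17, adjusted p = 7.0e-06, edgeR). In LT (117 ± 7.52 CPM, SD, n = 2) it rose 4.66-fold (2.22, SE 0.18, adjusted p = 1.4e-05, edgeR). When only the SA and LT libraries were fitted, the size was 2.25 and the adjusted p was 0.00291, past 0.05 but not past 0.001. Between ET and LT the log2 fold change was 0.18 (SE 0.18, adjusted p = 0.896), smaller than the spread between animals. Neu1 ranked 48 of 4705 single-gene units from SA to ET and 30 from SA to LT, so 99.0% and 99.4% of the units lay below it.

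Some differences of Neu1 could be followed within a season, but none with ET, and IBA and LT shared no season. In the season that holds both LT animals, SA replicate 1 had 30.1 CPM, the 2 Ent animals 49.0 and 49.4, and the LT animals 111 and 122. In the season that holds the IBA animals, the 2 SA animals had 21.7 and 23.2 CPM, the IBA animals 10.2 to 14.0, and Ent replicate 3 had 43.1. With season as a covariate the log2 fold change was 2.03 from SA to LT, 1.73 from IBA to Ent and 2.93 from IBA to LT.

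**Figure D1:**
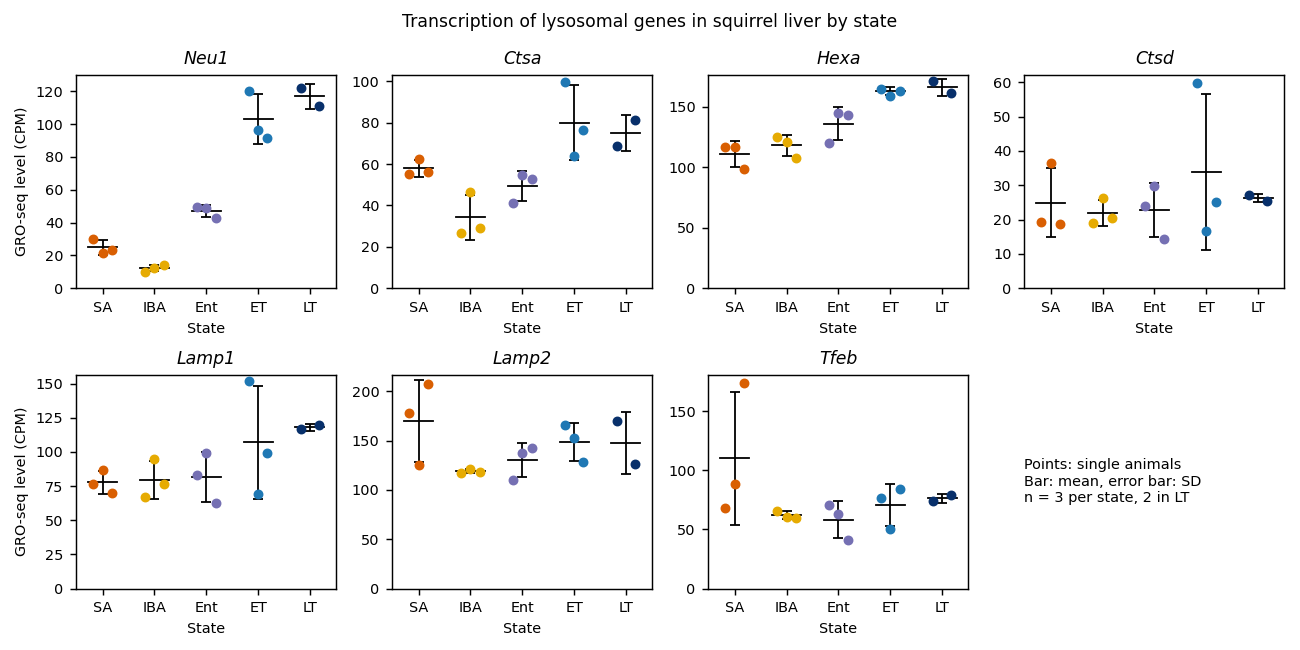
GRO-seq levels of the 7 lysosomal genes (vertical axis, CPM, each panel on its own scale from 0) in the 5 states (horizontal axis). Points are single animals, horizontal bars are means and error bars are SD, with n = 3 per state and n = 2 in LT. Neu1 goes from 10.2 to 14.0 CPM in IBA to 91.3 CPM or more in every ET and LT animal, while single animals lie far above the others for Ctsd in ET (59.8 CPM) and for Tfeb in SA (174 CPM).

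Among the hydrolases, Ctsa encodes cathepsin A, the carboxypeptidase that also protects NEU1. Its SA values were 55.0, 62.7 and 56.3 CPM, and its IBA values were 26.7, 46.6 and 29.2 CPM. The Ent animals had 41.2, 54.6 and 52.9 CPM. The ET animals had 99.5, 64.0 and 76.6 CPM and the LT animals 68.9 and 81.3 CPM. Ctsa thus had the order of Neu1 from IBA through Ent to the cold states, but over a smaller range, and its SA level lay above all Ent animals.

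No difference of Ctsa passed 0.001. The difference from IBA to LT was nearest, a 2.19-fold higher level (log2 1.13, SE 0.24, adjusted p = 0.0021, edgeR), and the groups did not overlap. From Ent to ET the log2 fold change was 0.69 (SE 0.22, adjusted p = 0.032), which was 0.51 (adjusted p = 0.127) without ET replicate 1 and 0.58 (adjusted p = 0.12) without Ent replicate 1. From SA to IBA it was -0.76 (SE 0.22, adjusted p = 0.068), and -1.05 (adjusted p = 0.024) without IBA replicate 2. From SA the log2 fold change was 0.47 to ET (SE 0.22, adjusted p = 0.09) and 0.37 to LT (SE 0.24, adjusted p = 0.219), although the cold animals all lay above the SA animals. Without ET replicate 1 the difference from SA to ET was 0.28.

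Per unit length, the transcription of Neu1 went from below that of Ctsa to above it. The ratio of Neu1 to Ctsa in CPM per kilobase was 0.300 to 0.474 in the SA animals and 0.233 to 0.416 in the IBA animals. At entrance it was 0.705 to 1.04, with 1 of 3 animals above 1. It was 1.03 to 1.30 in ET and 1.18 to 1.53 in LT, so Neu1 was above Ctsa in 3 of 3 and 2 of 2 animals. The third partner of the complex, beta-galactosidase, is encoded by Glb1, which is counted in a merged unit with Tmppe and was looked up after the values were seen. That unit had means of 44.0 CPM in SA, 36.7 in IBA, 48.5 in Ent, 51.8 in ET and 49.6 in LT. Its log2 fold changes from SA were 0.23 (SE 0.13, adjusted p = 0.143) to ET and 0.17 (SE 0.14, adjusted p = 0.333) to LT, which did not pass the test. From IBA to LT it was 0.44 (SE 0.14, adjusted p = 0.023, edgeR), past 0.05, and the animals did not overlap.

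Hexa, the alpha subunit of the beta-hexosaminidase that degrades GM2 ganglioside, had a narrow spread within each state and was higher in the cold. Its values were 117, 117 and 98.9 CPM in SA and 125, 121 and 108 CPM in IBA. They were 120, 145 and 143 CPM in Ent, 165, 159 and 163 CPM in ET and 171 and 161 CPM in LT. Every cold animal lay above every other animal. The size was modest, 1.47-fold from SA to ET (log2 0.55, SE 0.12, adjusted p = 0.0017, edgeR) and 1.50-fold from SA to LT (0.58, SE 0.13, adjusted p = 0.0026). Between IBA and LT Hexa differed by 0.49 (SE 0.13, adjusted p = 0.007), and the adjusted p was 0.058 with season as a covariate and 0.057 without LT replicate 1. These passed 0.05 and not 0.001, and the step from Ent to ET (0.26, SE 0.12, adjusted p = 0.11) passed neither. In DESeq2 the differences from SA to ET and from SA to LT passed 0.001, with adjusted p of 1.4e-05 and 3.9e-05.

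Ctsd, the aspartic protease cathepsin D, showed no difference beyond the spread between animals. Its values were 19.3, 36.6 and 18.8 CPM in SA, 19.0, 26.3 and 20.4 in IBA and 24.0, 29.9 and 14.4 in Ent. In ET they were 59.8, 16.7 and 25.2 CPM, and in LT 27.2 and 25.5 CPM. All the groups overlapped, and every tested contrast had an adjusted p of 0.325 or above. The high ET mean of 33.9 ± 22.8 CPM (SD, n = 3) rests on ET replicate 1. Without that library the log2 fold change from Ent to ET was -0.12 in place of 0.58, and that from SA to ET was -0.23 in place of 0.46.

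Of the membrane proteins, Lamp1 and Lamp2, the main glycoproteins of the lysosomal membrane, had different orders of levels. Lamp1 had 76.2, 86.9 and 70.3 CPM in SA, 67.1, 94.5 and 76.5 in IBA and 82.9, 99.0 and 62.4 in Ent. It had 152, 69.5 and 99.4 CPM in ET, and 117 and 120 CPM in LT. Both LT animals lay above all SA, IBA and Ent animals, while the ET animals overlapped with every other state. The log2 fold change from SA to LT was 0.61 (SE 0.28, adjusted p = 0.087) and from IBA to LT 0.57 (SE 0.28, adjusted p = 0.102). These fell under 0.05 without ET replicate 1 (adjusted p = 0.036 and 0.044), and no contrast of Lamp1 passed 0.001. From SA to ET the log2 fold change was 0.46 (SE 0.25, adjusted p = 0.14) and from Ent to ET 0.39 (SE 0.25, adjusted p = 0.259), and without ET replicate 1 these were 0.12 and 0.05. The unit of Lamp1 overlaps that of Grtp1 on the other strand by 2624 nt, and whether strand was used in counting is not given in the sources used here. Grtp1 went the other way, from a mean of 36.2 CPM in SA to 7.14 CPM in LT.

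Lamp2, which also serves in chaperone-mediated autophagy and in the fusion of autophagosomes with lysosomes, was highest in SA by its mean. The SA animals had 178, 125 and 207 CPM and the IBA animals 117, 121 and 118 CPM. The Ent animals had 110, 137 and 143 CPM, the ET animals 166, 153 and 128 CPM, and the LT animals 170 and 126 CPM. Its difference from SA to IBA was -0.52 on the log2 scale (SE 0.19, adjusted p = 0.124), and the groups did not overlap. From SA to ET it was -0.19 (SE 0.19, adjusted p = 0.401) and from SA to LT -0.20 (SE 0.21, adjusted p = 0.437). When libraries were scaled to uniquely mapped reads, the difference from SA to ET changed sign (0.07).

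Tfeb passed 0.05 in no tested contrast in the fit of all states. It had 68.2, 88.6 and 174 CPM in SA, 65.9, 60.4 and 59.5 in IBA and 70.8, 63.0 and 41.1 in Ent. The ET animals had 76.9, 50.3 and 84.4 CPM and the LT animals 73.6 and 78.9 CPM. The winter states all lay between 41.1 and 84.4 CPM, and the SA mean of 110 ± 56.0 CPM (SD, n = 3) rests on replicate 3. The log2 fold change was -0.84 from SA to IBA (SE 0.31, adjusted p = 0.139), -0.65 from SA to ET (SE 0.31, adjusted p = 0.096) and -0.54 from SA to LT (SE 0.35, adjusted p = 0.223). Without SA replicate 3 these were -0.34, -0.15 and -0.04, and without SA replicate 1 the difference from SA to ET was -0.90 (adjusted p = 0.024, edgeR). The LT animals lay above the IBA animals, with a log2 fold change of 0.30 (SE 0.35, adjusted p = 0.491), and with the compared states alone this was 0.34 (adjusted p = 0.043). From Ent to ET, where the animals overlapped, it was 0.28 (SE 0.31, adjusted p = 0.534). From IBA to Ent, the step at which Neu1 was chosen, the log2 fold change of Tfeb was -0.09 (SE 0.31), and over the 14 libraries the log2 levels of Tfeb and Neu1 had a Pearson r of -0.04. GRO-seq does not measure where the TFEB protein is, which is the main level of its control.

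**Figure D2:**
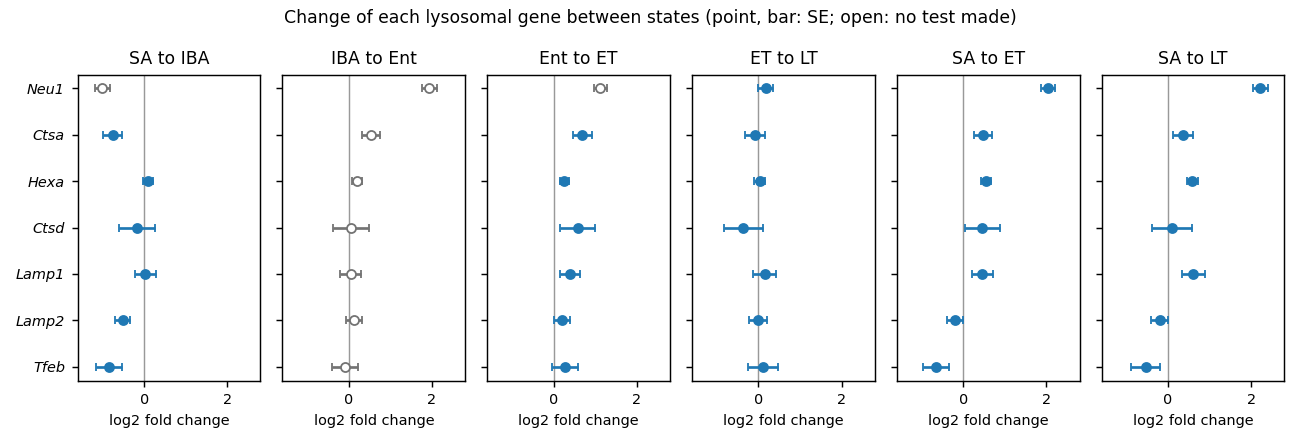
Log2 fold changes (horizontal axis) of the 7 lysosomal genes (rows) in 6 contrasts between states (panels), second state over first. Points are edgeR estimates from 14 libraries, bars are SE, and open points mark differences given with no test. Neu1 lies at 2.04 and 2.22 in the contrasts of SA with ET and LT, apart from the other genes, which lie between -0.65 and 0.61.

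Counted together, few of these genes passed the threshold of 0.001, and the counts have to be read against the whole table. From SA to IBA 0 of 6 genes passed (0.0158% of all units), and 0 of 6 passed 0.05 (5.22%). From Ent to ET 0 of 6 passed 0.001, where 1.01% of all units were called higher and 1.20% lower. At 0.05, 1 of 6 was higher (15.3% of all units) and 0 lower (13.4%). From IBA to LT 0 of 6 passed 0.001 (9.69% higher, 7.73% lower), and Ctsa and Hexa, 2 of 6, were higher at 0.05 (24.8% higher, 25.0% lower). From SA to ET 1 of 7 passed 0.001 (11.6% higher, 9.82% lower), and Neu1 and Hexa, 2 of 7, were higher at 0.05 (25.9% higher, 27.2% lower). From SA to LT Neu1 was again the 1 of 7 at 0.001 (8.21% higher, 7.54% lower), and Neu1 and Hexa the 2 of 7 at 0.05 (23.7% higher, 25.4% lower). From ET to LT 0 of 7 passed 0.001 (0%) or 0.05 (0.269%). At an unadjusted p of 0.05 or less, 3 of 6 genes passed from SA to IBA, 2 of 6 from Ent to ET and 0 of 7 from ET to LT. DESeq2 at 0.001 gave 0 in each of these 3 contrasts. From IBA to LT 2 of 6 passed unadjusted, and 2 of 6 passed 0.001 in DESeq2 (Ctsa and Hexa). The shares of all units at an unadjusted p or in DESeq2 are not given here, so those counts cannot be set against the whole table. For so few genes the shares at an adjusted p cannot be set apart from it either.

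Compared per kilobase of unit, the genes changed places mainly through Neu1. Lamp1 had the highest mean in every state, from 5.23 CPM per kilobase in SA to 7.95 in LT. Neu1 was the lowest of the 7 in SA (1.50) and in IBA (0.735), the fourth in Ent (2.83), and the second in ET (6.15) and LT (6.98). Tfeb was the lowest in Ent (1.22), ET (1.48) and LT (1.60). Over the 14 libraries, the log2 level of Hexa had an r of 0.84 with that of Neu1, Ctsa 0.81, Lamp1 0.59, Ctsd 0.30 and Lamp2 0.29. These describe points that share library, depth and state.

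In the HiC_Itri_2 genome the unit of Neu1 lies on Itri8 from 35860896 to 35877587 on the minus strand (16692 nt), and Tfeb lies on the same sequence from 45722977 to 45770697, also on the minus strand. Ctsa (191668463 to 191682896) and Hexa (113856059 to 113889836) are on the minus strand of Itri5, and Ctsd is on that of Itri3 (1426023 to 1436445). Lamp1 is on the plus strand of Itri4 (195563777 to 195578663) and Lamp2 on the minus strand of Itri10 (91354133 to 91402889). Each unit is a gene body without the first 500 nt after the start site. The study marks those of Neu1 and Hexa as extended at the 3′ end, while its marks for the others were not analysed here. The paper describes polymerase lying further past gene ends from Ent through ET to LT. Reads past the end of a gene can thus be counted in its extended unit. Their part in the levels and per-kilobase values of Neu1 and Hexa was not tested. Transcription that runs on from a gene upstream could be counted in a unit downstream, so the nearest unit upstream on the same strand was looked up. For Neu1 this was Nelfe at 81159 nt. This covers only genes with a unit: in a RefSeq gene table of another assembly (mIctTri1.hap1), which gives no strand, Slc44a4 is next to Neu1, it has 0 units in the count table, and whether its transcription enters the unit of Neu1 was not tested. Ctsa alone had a unit within 20 kb, Zswim1:Zswim3:Snx21 at 6003 nt. The mean level of that unit was 108 CPM in SA, 86.8 in IBA, 49.3 in Ent, 38.5 in ET and 35.2 in LT. Whether its transcription enters the unit of Ctsa was not tested.

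The 54 other lysosomal genes with a unit of their own, of 135 listed by role with results of these data known, showed changes in both directions. At 0.001, 7 were higher and 4 lower from SA to ET, 6 higher and 2 lower from SA to LT, and 8 higher and 2 lower from IBA to LT. The shares of all units given above are of the same order. At 0.05 the counts were 18 and 10, 16 and 12, and 16 and 11. The median log2 fold change of the 54 was 0.17, 0.09 and 0.20 in these contrasts, against -0.03, -0.04 and -0.05 over all units. From Ent to ET none passed 0.001 and 10 were higher and 9 lower at 0.05, with 22 at an unadjusted p of 0.05 and 5 in DESeq2 at 0.001. From SA to IBA none passed 0.001 (9 unadjusted, 2 in DESeq2), and Vps29 of the retromer, at -1.32 (adjusted p = 0.0084), and Npc1, at -0.97 (adjusted p = 0.014), were lower at 0.05. From ET to LT none passed either threshold (8 unadjusted, 0 in DESeq2). The unadjusted and DESeq2 counts, here and below, have no share of all units beside them and cannot be read against the whole table. The summed level of the 54 was 4903 to 6174 CPM in SA, 5403 to 5721 in IBA, 5429 to 5493 in Ent, 5269 to 5945 in ET and 5483 to 5730 in LT, so these ranges overlapped. A large part of these sums is 1 gene, Fnip2, with means of 1436 CPM in SA, 1509 in IBA, 1287 in Ent, 759 in ET and 832 in LT. The sums therefore do not describe the other genes on their own.

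These counts depend on the fit, the libraries and the scaling. The shares of all units called with the compared states alone, with season or with a library left out are not given here. The counts from those fits cannot be read against the whole table, nor as particular to lysosomal genes. With the libraries of the compared states alone, none of the calls from SA to ET or from SA to LT passed 0.001 (0 and 0, in place of 11 and 8), so that the changes from SA named below hold for the fit of all states. With season as a covariate 1 call in place of 10 was left from IBA to LT, and 4 in place of 8 from SA to LT. From SA to ET the 11 calls became 6 without ET replicate 1, ET replicate 2 or IBA replicate 3, and 7 without ET replicate 3, SA replicate 1 or SA replicate 3. From SA to LT the 8 calls became 0 without LT replicate 1, 2 without LT replicate 3 and 4 without SA replicate 3. From IBA to LT the 10 calls became 1 without LT replicate 1 or LT replicate 3, 3 without IBA replicate 3 and 4 without IBA replicate 1 or IBA replicate 2. When libraries were scaled to uniquely mapped reads, the median of all units moved to 0.24 from SA to ET, 0.15 from SA to LT and 0.14 from IBA to LT. Of all units called, the share with a higher level then went from 54.2% to 75.4%, from 52.1% to 68.8% and from 55.6% to 71.5%, and the medians of the 54 were 0.44, 0.28 and 0.39. The lysosomal genes called were then 11 higher and 3 lower, 8 higher and 2 lower, and 8 higher and 1 lower.

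Among the glycosidases and sulfatases (10 tested), Hgsnat rose and Idua fell from SA to ET. Gm2a, the activator protein that presents GM2 ganglioside to the enzyme that Hexa encodes in part, was named after its values were seen and passed 0.05, with -0.88 from SA to ET (adjusted p = 0.0053) and -0.93 from SA to LT (adjusted p = 0.009). Hgsnat, the acetyltransferase of heparan sulfate degradation, rose from 140 ± 29.9 CPM in SA to 361 ± 131 CPM in ET (SD, n = 3; 1.36, SE 0.25, adjusted p = 0.00058). Idua, the iduronidase of the same pathway, fell from 33.6 ± 9.16 to 7.68 ± 2.74 CPM (SD, n = 3; -2.11, SE 0.38, adjusted p = 0.00059). Its counts were low in ET, at 23 to 63 per library.

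Of the 4 proteases tested, Ctsh rose, Ctsc and Prcp fell in a contrast each, and Ctsz passed no test. Ctsh, the aminopeptidase cathepsin H, had a mean of 95.6 ± 25.1 CPM in SA, 281 ± 40.1 in ET (SD, n = 3) and, over the 2 LT animals, 312 ± 13.6. The log2 fold changes of Ctsh were 1.56 from SA to ET (SE 0.20, adjusted p = 6.5e-05, edgeR) and 1.71 from SA to LT (SE 0.22, adjusted p = 7.9e-05). Ctsc, cathepsin C, which activates serine proteases, fell from 156 ± 14.5 CPM in IBA to 71.1 ± 9.96 CPM in LT (-1.13, SE 0.20, adjusted p = 0.00055). Prcp, a prolylcarboxypeptidase, fell from SA to ET by 0.94 on the log2 scale (SE 0.18, adjusted p = 0.00078).

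Of the 9 lipases, phosphatases and activator proteins, Npc2 and Asah1 rose. Npc2, the soluble protein that binds cholesterol in the lysosome, had a pattern with IBA lowest, at 17.9 ± 3.13 CPM in SA, 9.98 ± 1.52 in IBA, 22.0 ± 2.59 in Ent, 61.0 ± 19.2 in ET (SD, n = 3) and, over the 2 LT animals, 39.9 ± 1.48. Npc2 differed by 1.76 on the log2 scale from SA to ET (SE 0.23, adjusted p = 7.6e-05, edgeR) and 2.00 from IBA to LT (SE 0.26, adjusted p = 7.6e-05). Asah1, acid ceramidase, rose by 0.91 from SA to ET (SE 0.16, adjusted p = 0.00058) and by 1.22 from SA to LT (SE 0.18, adjusted p = 0.0002).

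Of the 15 membrane proteins, Tmem192 rose and Npc1 fell. Npc1 is the membrane transporter that receives cholesterol from NPC2, and in ET and LT its level went opposite to that of Npc2, from 237 ± 72.0 CPM in SA to 121 ± 4.95 in IBA, 86.2 ± 1.73 in Ent, 53.9 ± 11.3 in ET (SD, n = 3) and, over the 2 LT animals, 67.0 ± 3.31. The log2 fold change was -2.14 from SA to ET (SE 0.20, adjusted p = 9.9e-06, edgeR) and -1.82 from SA to LT (SE 0.23, adjusted p = 8.2e-05). Tmem192 was at 65.7 ± 17.1 CPM in SA and 166 ± 5.15 CPM in LT (1.33, SE 0.20, adjusted p = 0.00021).

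Of the 9 sorting genes, members of the GGA adaptor family, which carry hydrolase receptors from the Golgi, went in opposite directions. Gga2 fell from 85.3 ± 3.86 CPM in SA to 31.9 ± 2.54 CPM in ET (SD, n = 3; -1.42, SE 0.14, adjusted p = 1.0e-05, edgeR), and Gga3 rose from 36.0 ± 9.19 CPM in SA to 82.5 ± 0.807 CPM in LT (1.21, SE 0.21, adjusted p = 0.00055). Of the 7 genes of the TFEB family and its regulators, Lamtor3, a subunit of the Ragulator complex that brings mTORC1 to the lysosome, was the 1 that passed 0.001, with 1.56 from SA to ET (SE 0.19, adjusted p = 4.8e-05) and 1.32 from SA to LT (SE 0.21, adjusted p = 0.00032). MITF, the relative of Tfeb with a unit, had -0.74 from SA to ET (adjusted p = 0.012) and -0.03 from SA to LT (adjusted p = 0.929), and it was named after its values were seen.

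**Figure D3:**
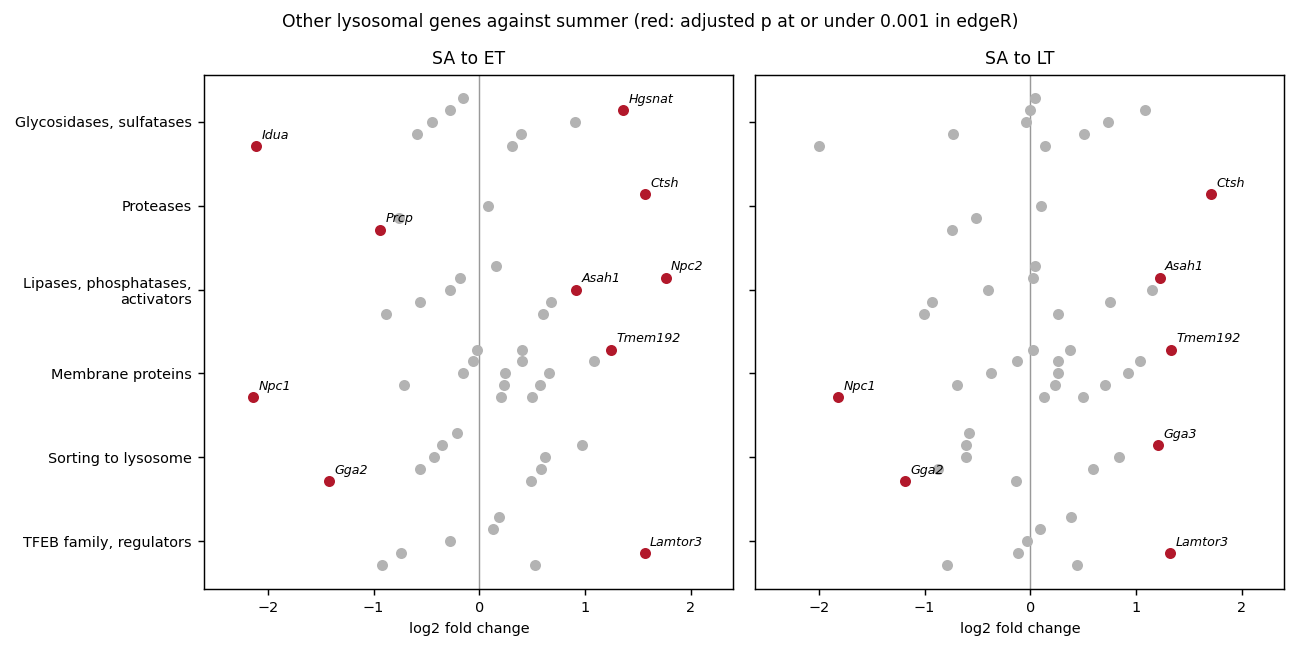
Log2 fold changes (horizontal axis) of the other lysosomal genes, with 1 of the 54 not shown, from SA to ET (left) and from SA to LT (right), by role (rows, with points spread vertically for legibility). Red points with names passed an adjusted p of 0.001 in edgeR and grey points did not. Red points lie on both sides of 0: from SA to ET, Npc1 (-2.14) and Idua (-2.11) lie farthest left and Npc2 (1.76), Ctsh (1.56) and Lamtor3 (1.56) farthest right.

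The single-gene units with levels most like Neu1 over the 14 libraries were Chfr (Pearson r of 0.99), Irgq (0.98), Atg4d (0.97), Nmnat1 (0.97) and Znf629 (0.97). Atg4d encodes an autophagy protease, Nmnat1 an enzyme of NAD synthesis in the nucleus and Chfr a ubiquitin ligase. Over the 9 libraries of SA, IBA and Ent alone the r was 0.97 for Chfr, 0.95 for Irgq and 0.92 for each of the others. They spanned a smaller range than Neu1: Chfr had means of 60.0, 46.0, 76.0, 113 and 125 CPM in SA, IBA, Ent, ET and LT. Irgq was nearest to Neu1 in range, with 16.2 to 23.9 CPM in IBA, 45.4 as its mean in Ent, and 81.4 and 78.6 in ET and LT. For Tfeb the most alike were P3h1 (0.84), Bysl (0.81), Mtmr14 (0.80), Cpeb4 (0.79) and Baiap2 (0.79). Without SA replicate 3 these became 0.70, 0.37, 0.87, 0.54 and 0.77. They are chosen from 4705 units for their likeness and carry no test.

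**Figure D4:**
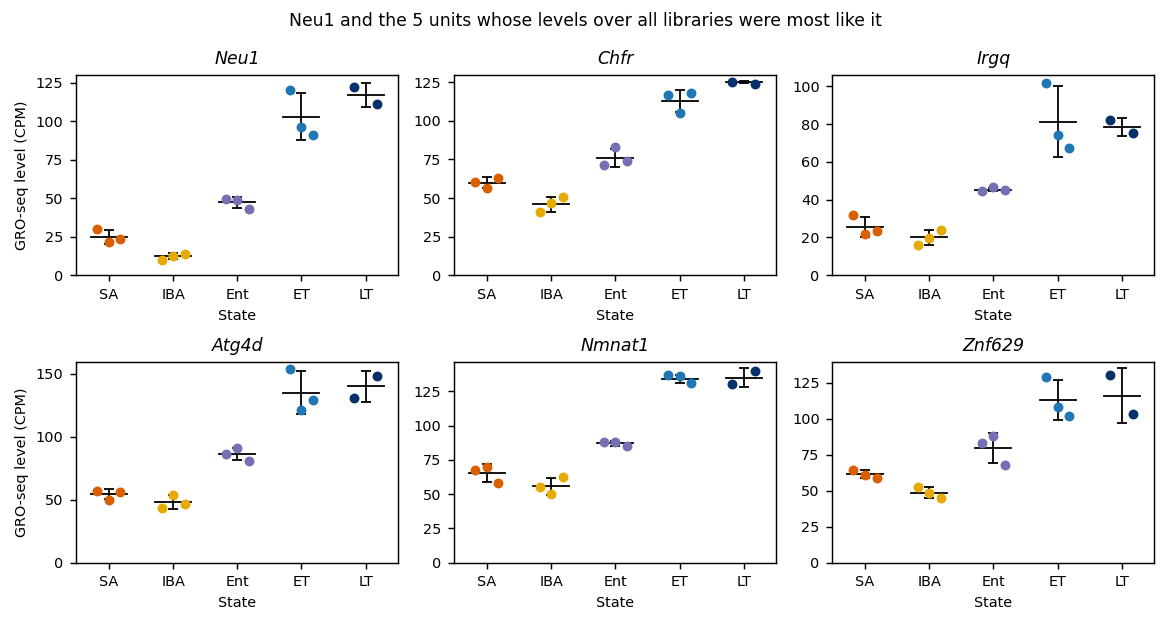
GRO-seq levels (vertical axis, CPM, each panel from 0) of Neu1 and of the 5 single-gene units with the highest correlation with it, in the 5 states (horizontal axis). Points are animals, horizontal bars are means and error bars are SD, with n = 3 and n = 2 in LT. All 6 have their lowest mean in IBA and their 2 highest means in ET and LT, and the units were selected for this likeness.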

How the data were processed

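GRO-seq libraries were made from the livers of 15 animals, and 14 have a column in the table. LT replicate 2 has none and is not analysed here. The paper states that its quality was relatively poor and that it was dropped after also standing out in a principal component analysis. The spread within LT is thus that of the libraries kept. Following the methods of the study, the authors trimmed reads with cutadapt, aligned them with BWA to HiC_Itri_2, redrew gene bodies from the GRO-seq signal, dropped the first 500 nt, merged overlapping genes and counted reads with featureCounts (versions are not given in the sources used here). The authors' table holds raw, unnormalized counts for each unit and library, and each unit's length is given beside them. Merging and 3′ extension set which reads a unit holds.

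Counts of all 6324 units were scaled by TMM and fitted with edgeR 4.0.16 (R 4.3.3) by quasi-likelihood with state as the only factor, in 1 fit over the 14 libraries. The Benjamini-Hochberg adjustment covered all units, with a threshold of 0.001. SE was the log2 fold change divided by the root of its F statistic. Levels are CPM, and CPM per kilobase of unit for comparing genes. Correlations used log2 CPM with a prior count of 2. The fit was tested on simulated data. Replicates are separate animals.

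Members and lists were chosen with earlier results of these data known. Named genes were the members, the nearest upstream unit on the same strand within 20 kb, the 5 units most correlated with Neu1 and with Tfeb, and listed genes called at 0.001, at most the 4 largest per direction and contrast. Names come from the table, and all 9 were found in a RefSeq gene table. No sequence is printed. The values of 1 listed gene are not reported here, though it is in the counts. Alternatives were DESeq2 1.42.0, RLE and upper-quartile scaling, scaling to uniquely mapped reads, adjusted deviances, a minimum of 10 counts, single-gene units, compared states alone, season, replicate block and each library left out.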

Additional observations from a re-analysis of the deposited data

How the results depend on the processing

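Fold changes of the 7 lysosomal genes were compared over 24 alternatives, 1155 values in all, against the threshold of 0.001. Of these, 1142 stayed on their side of it or, where not tested, within their spread. Another 8 passed it newly, 1 lost it (Neu1 from SA to LT with the compared states alone) and 4 moved by more than their spread. The threshold of 0.05 was applied only to the counts of calls below. The sign differed in 29 of the 1155, each past 0.001 in neither fit. Members called at 0.001: from Ent to ET 0, and 1 at 0.05. From IBA to LT 0, with 2 in DESeq2 (Ctsa and Hexa), 1 with uniquely mapped reads, 2 at 0.05 and 0 to 1 with a library left out, the 1 (Ctsa) without IBA replicate 2. From SA to ET and from SA to LT 1 each, with 2 in each in DESeq2, with uniquely mapped reads and at 0.05 (Neu1 and Hexa), and 0 from SA to LT with the compared states alone. Other lysosomal genes called: from SA to IBA 0, with 2 in DESeq2 and 2 at 0.05. From Ent to ET 0, with 5 in DESeq2, 19 at 0.05, and 1 (Npc2) with RLE factors, adjusted deviances, uniquely mapped reads or single-gene units. From IBA to LT 10, with 1 with season as a covariate, 27 at 0.05 and 1 to 10 with a library left out. From SA to ET 11, with 20 in DESeq2, 0 with the compared states alone, 6 with the replicate block, 28 at 0.05 and 6 to 10 with a library left out. From SA to LT 8, with 15 in DESeq2, 0 with the compared states alone, 4 with season, 28 at 0.05 and 0 to 9 with a library left out. Upper-quartile scaling made 35.4% of calls from Ent to ET higher, against 45.7% with TMM and 71.3% with uniquely mapped reads. The causes were not tested. Counts of calls under the other fits have no share of all units called beside them and cannot be read against the whole table. With an LT replicate left out, the remaining animal was assumed to vary like the other groups. Deviations of libraries with the same number correlated at -0.248 to 0.156, -0.263 to 0.234 and -0.0906 to 0.118 for replicates 1, 2 and 3, so the libraries share only a number, and the block is given for completeness. Season could not be fitted for contrasts with ET. LT has 2 animals, which limits the precision of each contrast with LT.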
